A study of Mus musculus with 12 samples.

Results

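The Ms4a genes examined here encode small membrane proteins that cross the plasma membrane several times and keep both ends in the cytoplasm. Ms4a6b, Ms4a6c, Ms4a6d, Ms4a4c and Ms4a7 are 5 of the 18190 genes in the deposited table of FPKM values (fragments per kilobase of transcript, scaled to the library's mapped fragments). They were chosen by name from earlier results of these data, for the strong negative interaction of Ms4a6c and Ms4a6d: with LPS they changed differently in the 2 cell lines. That interaction, and the 4 differences between single groups that make it up or share its libraries, are therefore given as descriptions with no test. The 2 averages tested below, of the LPS response over both lines and of the line difference over both states, are arithmetically independent of it.

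RNA was sequenced from RAW264.7 cells, a mouse macrophage-like line. The 12 libraries form 4 groups of 3: cells with a DCLK1 shRNA (shDCLK1) given LPS, control cells given LPS, untreated shDCLK1 cells and untreated control cells. DCLK1 (doublecortin-like kinase 1) is a protein kinase, and LPS is the bacterial lipopolysaccharide that macrophages sense through Toll-like receptor 4. LPS was given at 500 ng/mL for 6 h. The protocol gives the controls a negative control shRNA, although their label lists no knockdown, and describes both lines as monoclonal and stably expressing their shRNA. With 1 clone per line, the shRNA and the clone cannot be told apart, and nothing says whether the 3 libraries of a group are separate cultures, so p-values measure only the spread between these libraries. Dclk1 was listed at 0.01 FPKM or 0 in every library, so the knockdown cannot be checked at the RNA level.

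The best known relatives of these genes are Ms4a1, which encodes the B cell protein CD20, and Ms4a2, which encodes the beta chain of the mast cell IgE receptor. Several other members are transcribed in monocytes, macrophages and microglia, where MS4A proteins have been found beside receptors of pathogens and lipids such as dectin-1 and TREM2. The functions of mouse Ms4a6b, Ms4a6c and Ms4a6d in macrophages are less well defined.

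The promoters of 4 of the 5 genes were in the RefSeq promoter table (GRCm38.p6), Ms4a7 with 2 starts. Ms4a6d had no entry there, so its promoter was not searched. Those of Ms4a6c and Ms4a6b are printed because the 2 genes differ between groups in a related way and their promoters resemble each other. That of Ms4a4c is printed as a promoter of the Ms4a4 group. The group means of Ms4a4c ranked in the same order as those of Ms4a6d. Whether promoter letters go with levels was not tested. Capitals mark matches, on either strand, to GAAANNGAA, the core of an interferon-stimulated response element, and to GGGNNTTTC, a form of the NF-κB site; each stretch is the 250 bases before the start, 5′ to 3′ on the gene's strand.
Ms4a6c, chr19:11469118-11469367, plus strand: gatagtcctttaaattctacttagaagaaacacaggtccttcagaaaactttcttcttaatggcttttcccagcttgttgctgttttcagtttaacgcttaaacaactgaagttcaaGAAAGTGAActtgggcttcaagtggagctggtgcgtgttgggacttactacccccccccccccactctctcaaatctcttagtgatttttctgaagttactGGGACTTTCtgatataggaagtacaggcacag
Ms4a6b, chr19:11518309-11518558, plus strand: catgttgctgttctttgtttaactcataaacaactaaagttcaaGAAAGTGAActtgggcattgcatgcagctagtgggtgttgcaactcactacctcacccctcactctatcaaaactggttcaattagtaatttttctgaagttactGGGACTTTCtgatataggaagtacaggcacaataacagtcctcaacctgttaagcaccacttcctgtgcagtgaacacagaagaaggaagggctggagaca
Ms4a4c, chr19:11407411-11407660, plus strand: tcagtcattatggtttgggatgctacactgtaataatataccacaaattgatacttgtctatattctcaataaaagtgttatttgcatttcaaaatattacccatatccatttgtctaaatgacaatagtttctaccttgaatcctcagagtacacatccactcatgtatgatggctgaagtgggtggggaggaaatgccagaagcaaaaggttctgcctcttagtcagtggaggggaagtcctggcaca
Ms4a6c and Ms4a6b both carried GAAAGTGAA and GGGACTTTC. Counted from the start, the first match began at base -133 in Ms4a6c and -206 in Ms4a6b, and the second at -32 in Ms4a6c and -101 in Ms4a6b. The 2 promoters shared an identical stretch of 48 bases, and 85.9% of their 220 aligned bases were the same. That alignment of the 2 windows of 300 bases had 160 gap columns, 14 of them between the first and last aligned base and the others at the ends, so the identity covers the overlapping part only. The matches lie in related sequence and are not independent. Over the 32851 promoters of the table, in windows of 300 bases that run on to 50 bases after the start, 8.56% held GAAANNGAA and 4.36% held GGGNNTTTC. Ms4a4c held neither, and both Ms4a7 starts held GAAANNGAA. A PU.1-type GAGGAA, in 28.3% of all promoters, was found in Ms4a4c and at 1 Ms4a7 start. The AP-1 type TGANTCA, in 7.81%, was found at 1 Ms4a7 start. The STAT-type TTCNNNGAA, in 8.30%, matched none of the 5 member promoters searched, and Ms4a6d was not among them. A match is a string of letters, not a shown binding site.

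Ms4a6c was at its highest in control cells with LPS and at its lowest in untreated control cells. It had 7.59, 8.70 and 6.75 FPKM in shDCLK1 cells with LPS, against 14.15, 14.70 and 16.20 FPKM in control cells with LPS. It had 7.78, 7.77 and 6.78 FPKM in untreated shDCLK1 cells, against 1.15, 0.97 and 1.12 FPKM in untreated control cells. The 2 groups of shDCLK1 cells overlapped, whereas LPS and untreated control libraries lay far apart, at 13.9 times in group means. Untreated, the shDCLK1 cells held 6.89 times the control level; with LPS they held 0.511 times, and neither pair overlapped. The LPS difference on the log2(FPKM + 1) scale was 0.04 (SE 0.0818) in shDCLK1 cells and 2.94 (SE 0.0818) in control cells. The value near 0 takes its sign from single libraries: it was -0.05 without the second shDCLK1 library with LPS. The median of all 11052 tested genes was -0.29 for that difference, and scaling each library to the median of gene ratios put Ms4a6c at 0.34.

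Ms4a6d, the next gene of the Ms4a6 group, was nearly silent in untreated control cells. It had 6.49, 9.53 and 8.20 FPKM in shDCLK1 cells with LPS, against 14.25, 17.33 and 16.84 FPKM in control cells with LPS. It had 4.68, 4.04 and 4.29 FPKM in untreated shDCLK1 cells, against 0.05, 0.32 and 0.33 FPKM in untreated control cells. No pair of these 4 groups overlapped. With LPS it was 1.86 times the untreated level in shDCLK1 cells and 69.2 times in control cells; the control figure rests on a level under 1 FPKM and is imprecise. The corresponding log2 differences were 0.75 (SE 0.124) and 3.80 (SE 0.124). The shDCLK1 cells held 0.500 times the control level with LPS and 18.6 times the control level untreated. The fold of 18.6 divides by the same low control level and is imprecise too.

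Ms4a6b was the member whose LPS difference pointed in opposite directions in the 2 lines. It had 1.63, 2.60 and 2.36 FPKM in shDCLK1 cells with LPS, against 3.38, 3.34 and 3.20 FPKM in control cells with LPS. It had 3.52, 3.47 and 3.97 FPKM in untreated shDCLK1 cells, against 0.29, 0.20 and 0.25 FPKM in untreated control cells. All 3 LPS libraries of the shDCLK1 line were below its untreated libraries, at 0.601 times in group means, and all 3 of the control line were above, at 13.4 times. The log2 differences were -0.55 (SE 0.0994) in shDCLK1 cells and 1.79 (SE 0.0994) in control cells; the first stayed below 0 under every setting tried but shrank to -0.17 under quantile normalization. Between the lines, shDCLK1 cells held 0.664 times the control level with LPS and 14.8 times the control level untreated. The folds of 13.4 and 14.8 divide by untreated control levels of 0.20 to 0.29 FPKM and are imprecise. The 2 highest groups, untreated shDCLK1 cells and control cells with LPS, did not overlap.

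Ms4a4c, of the Ms4a4 group, was detected mainly with LPS. It had 0.64, 1.39 and 0.81 FPKM in shDCLK1 cells with LPS, against 2.10, 2.65 and 2.51 FPKM in control cells with LPS. It had 0.14, 0.18 and 0.22 FPKM in untreated shDCLK1 cells, and in untreated control cells it was listed at 0 in 2 libraries and at 0.03 FPKM in 1. LPS libraries were above the untreated ones in both lines, at 5.26 times in shDCLK1 cells; no fold is given against control libraries at 0. shDCLK1 cells with LPS were at 0.391 times control cells with LPS, the same direction as the 3 Ms4a6 genes, and untreated they were above them in every library. The untreated difference in log2(FPKM + 1) was 0.22 (SE 0.123), against 1.90 to 2.12 for the Ms4a6 genes; the added 1 compresses differences at such low levels.

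Ms4a7 was at the edge of detection. It was listed at 0.04 FPKM in 2 control libraries with LPS and at 0 in the other 10 libraries, and it did not pass the filter of 1 FPKM in 3 libraries.

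**Figure D1:**
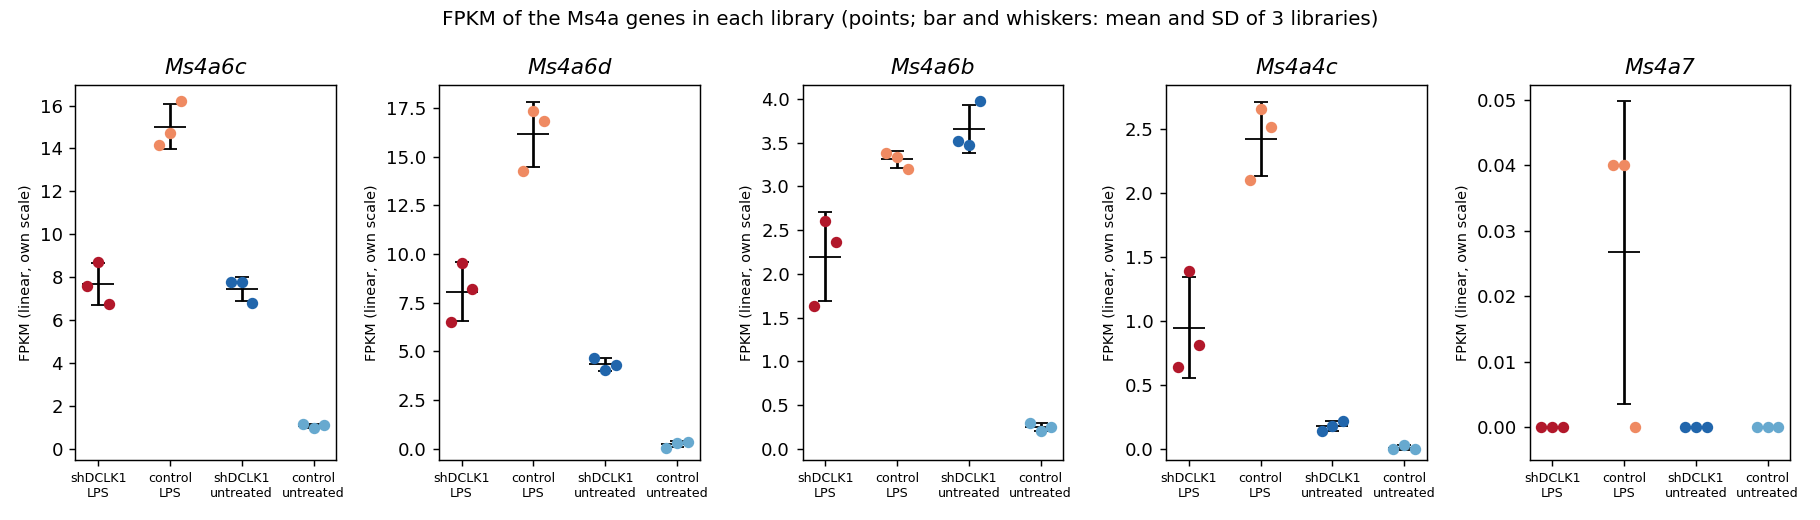
FPKM of the 5 Ms4a genes (y axes, linear, each panel its own scale) in the 12 libraries by group, shDCLK1 beside control; points are libraries, and the bar and whiskers are the mean and SD of 3. Control cells with LPS sit above the LPS libraries of the shDCLK1 line for Ms4a6c, Ms4a6d, Ms4a6b and Ms4a4c, and untreated shDCLK1 cells sit above untreated control cells for the same 4 genes.

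In the deposited FPKM, which are per length, the levels ranked differently by group. With LPS, Ms4a6d and Ms4a6c came first and their ranges overlapped in both lines: 8.07 ± 1.52 and 7.68 ± 0.978 FPKM in shDCLK1 cells, and 16.1 ± 1.66 and 15.02 ± 1.06 FPKM in control cells (SD, n = 3 each). Ms4a6b followed at 2.20 ± 0.505 FPKM in shDCLK1 cells and 3.31 ± 0.0945 FPKM in control cells, then Ms4a4c and Ms4a7. In untreated shDCLK1 cells the order was Ms4a6c at 7.44 ± 0.574, Ms4a6d at 4.34 ± 0.323 and Ms4a6b at 3.65 ± 0.275 FPKM, with no overlap between neighbours. In untreated control cells Ms4a6c led at 1.08 ± 0.0964 FPKM, and Ms4a6d and Ms4a6b overlapped at 0.233 ± 0.159 and 0.247 ± 0.0451 FPKM. The summed level of the 5 genes was 18.9 ± 3.01 FPKM in shDCLK1 cells with LPS and 36.9 ± 2.61 FPKM in control cells with LPS. Untreated, it was 15.6 ± 0.450 FPKM in shDCLK1 cells and 1.57 ± 0.114 FPKM in control cells (SD, n = 3).

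Ms4a6d relative to Ms4a6c, a ratio within each library that cancels the library's scale, was higher with LPS than untreated in both lines. It was 1.06 ± 0.183 in shDCLK1 cells with LPS and 1.08 ± 0.0913 in control cells with LPS, which overlapped. It was 0.585 ± 0.0582 in untreated shDCLK1 cells and 0.223 ± 0.156 in untreated control cells, which did not (SD, n = 3). The untreated control ratio ran from 0.0435 to 0.330 over the libraries. It rests on Ms4a6d at 0.05 to 0.33 FPKM and is imprecise. Ms4a6b relative to Ms4a6c was highest in untreated shDCLK1 cells, at 0.495 ± 0.0786. It was 0.288 ± 0.0681 in shDCLK1 cells with LPS, 0.221 ± 0.0213 in control cells with LPS and 0.227 ± 0.0233 in untreated control cells. So the 3 Ms4a6 genes were not in one fixed proportion. These ratios use the same libraries that the choice of genes used and carry no test.

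**Figure D2:**
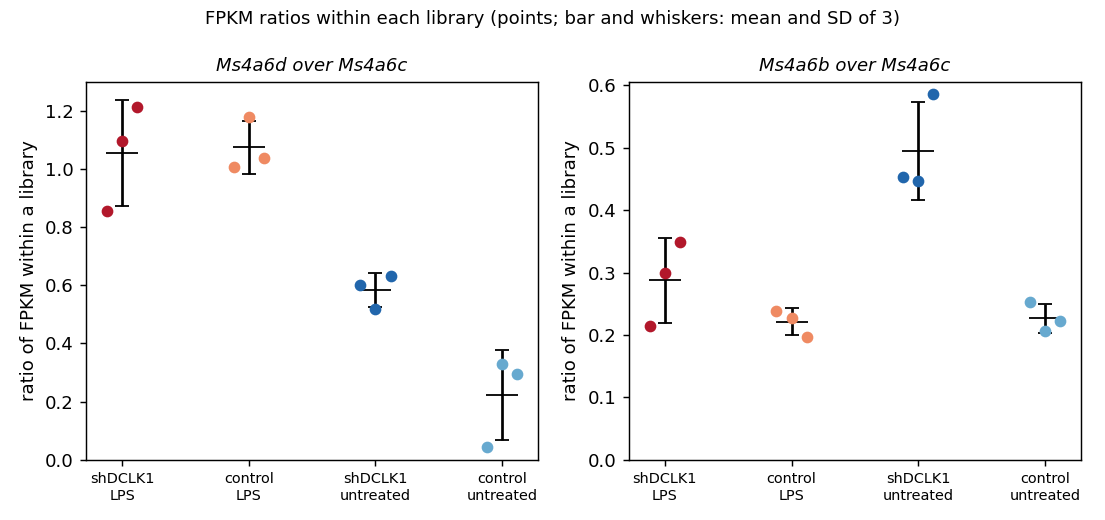
FPKM of Ms4a6d over Ms4a6c (left) and of Ms4a6b over Ms4a6c (right) in each of 12 libraries (y axes, linear, starting at 0), by group; the bar and whiskers are the mean and SD of 3. The left ratio is near 1.06 and 1.08 in the 2 LPS groups, and the right one stands out in untreated shDCLK1 cells at 0.495.

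The Ms4a6 genes share stretches of transcript, which bears on how far their values are separate. In GENCODE M21 (GRCm38) transcripts, the longest identical stretch was 96 bases between Ms4a6b and Ms4a6c, 81 bases between Ms4a6b and Ms4a6d and 44 bases between Ms4a6c and Ms4a6d. Of the 50-base windows of Ms4a6b, 4.14% occurred in Ms4a6c and 1.52% in Ms4a6d. Ms4a4c shared 127 bases with Ms4a4b, which was at most 0.32 FPKM here. How reads common to 2 genes were divided is not given in the sources used here, so low values beside a higher relative are uncertain.

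Averaged over both lines, LPS raised Ms4a6d, Ms4a6c and Ms4a6b. In the limma fit of log2(FPKM + 1) with Benjamini-Hochberg adjustment over 11052 genes, the average LPS response was 2.28 (SE 0.0880, adjusted p = 2.66e-11) for Ms4a6d and 1.49 (SE 0.0579, adjusted p = 2.81e-11) for Ms4a6c. For Ms4a6b it was 0.62 (SE 0.0703, adjusted p = 2.20e-06), the mean of a negative difference in shDCLK1 cells and a positive one in control cells. The Ms4a6c average joins 0.04 (SE 0.0818) in shDCLK1 cells, where the groups overlapped, and 2.94 (SE 0.0818) in control cells. It is not a rise in both lines. Ms4a4c gave 1.23 (SE 0.0867, adjusted p = 1.52e-08) but passed the filter through its LPS libraries alone, so nothing rests on that test. Of all genes tested, 26.2% were called higher and 63.5% lower, with a median of -0.33. That split depends on the scale: after median-of-ratios scaling 4918 genes were called higher and 4839 lower, and the values of these genes were larger, for example 0.86 for Ms4a6b and 1.80 for Ms4a6c. With log2(FPKM + 0.1) they were 1.29 for Ms4a6b, 1.86 for Ms4a6c, 3.31 for Ms4a6d and 3.19 for Ms4a4c.

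Averaged over both states, the line difference was positive for the 3 Ms4a6 genes. It was 0.73 (SE 0.0703, adjusted p = 3.48e-06) for Ms4a6b, 0.57 (SE 0.0579, adjusted p = 5.81e-06) for Ms4a6c and 0.60 (SE 0.0880, adjusted p = 1.32e-04) for Ms4a6d in limma. With log2(FPKM + 0.1) these were 1.42, 0.86 and 1.44, and quantile normalization gave 0.46 for Ms4a6b; the calls held. For Ms4a4c the limma value was -0.30 (SE 0.0867, adjusted p = 0.0124). Nothing rests on it either, since Ms4a4c reached 1 FPKM in 1 shDCLK1 library and in all 3 control libraries with LPS and passed the filter through those control libraries, and with log2(FPKM + 0.1) the value was 0.012 (adjusted p = 0.968). Of all genes tested, 30.6% were called higher and 16.9% lower in this average, with a median of 0.02; after median-of-ratios scaling these were 2793 and 2681 genes, against 3387 and 1867 as deposited. For each Ms4a6 gene it averages a large positive untreated difference and a smaller negative one with LPS: 2.02 and -0.89 for Ms4a6c, 2.12 and -0.93 for Ms4a6d, and 1.90 and -0.44 for Ms4a6b.

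**Figure D3:**
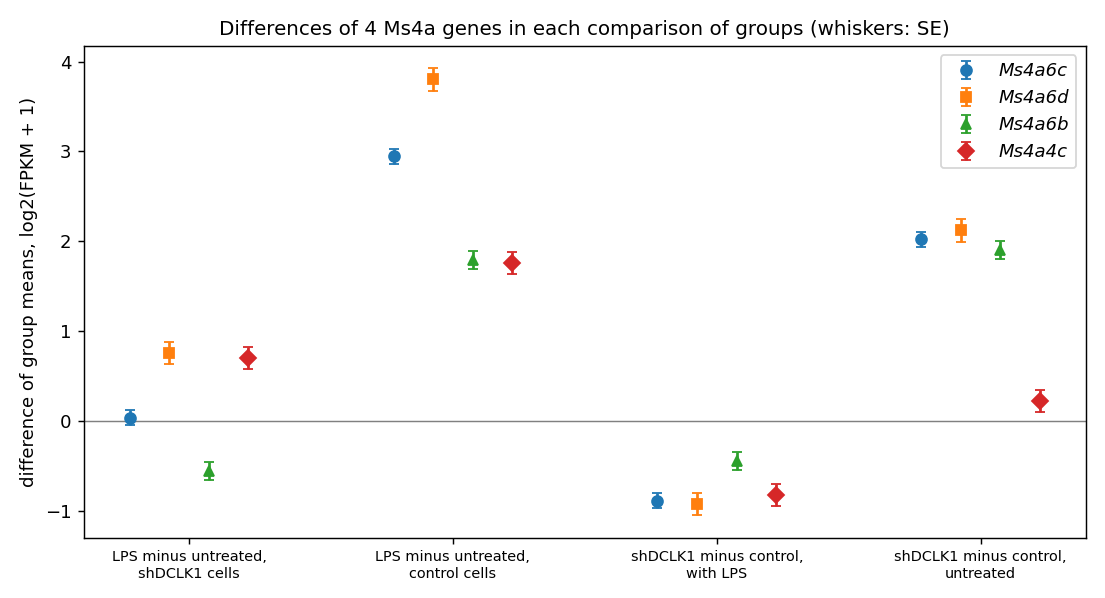
Difference of group means on the log2(FPKM + 1) scale (y axis) for 4 Ms4a genes in each of the 4 comparisons of groups (x axis), LPS minus untreated within each line and shDCLK1 minus control within each state; whiskers are the SE of the limma fit. The Ms4a6 genes lie between 1.90 and 2.12 in the untreated comparison of lines and between -0.93 and -0.44 in that with LPS.

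The interaction, the LPS difference in shDCLK1 cells minus that in control cells, was -3.05 (SE 0.176) for Ms4a6d, -2.91 (SE 0.116) for Ms4a6c, -2.34 (SE 0.141) for Ms4a6b and -1.05 (SE 0.173) for Ms4a4c. From the most negative, these were ranks 1, 4, 23 and 210 of 11052, around a median of 0.09. Among all genes tested 32.6% were called higher and 16.9% lower in the interaction (3601 and 1863 genes, and 2539 and 2616 after median-of-ratios scaling); the Ms4a genes were chosen on it, and nothing is read from their ranks. With log2(FPKM + 0.1) the values were -4.88 for Ms4a6d, -3.64 for Ms4a6c, -4.04 for Ms4a6b and -2.67 for Ms4a4c.

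**Figure D4:**
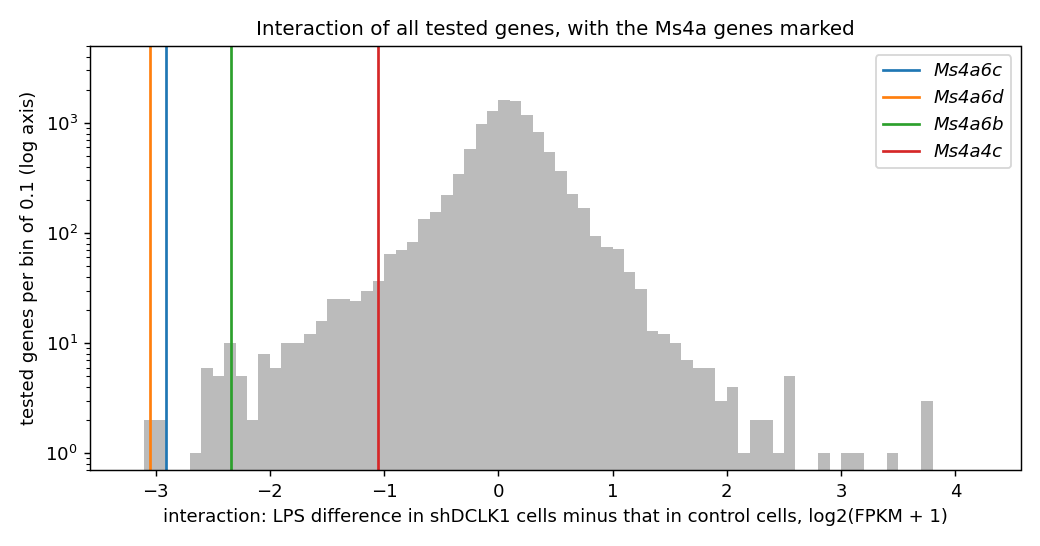
Number of tested genes (y axis, log scale) per bin of the interaction (x axis, log2(FPKM + 1) scale, bins of 0.1), with vertical lines at 4 Ms4a genes. Ms4a6d and Ms4a6c stand at the left end, at -3.05 and -2.91, Ms4a6b at -2.34 and Ms4a4c at -1.05.

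Bulk RNA cannot tell fewer expressing cells from less RNA per cell. Of 10 macrophage markers 9 reached 1 FPKM; Mertk stayed at or below 0.12. Their summed FPKM, led by Cd14 at 146 to 2752 FPKM over the libraries, moved with the groups: 4626 to 4894 in shDCLK1 cells with LPS, 3916 to 3986 in control cells with LPS, 1941 to 2009 in untreated shDCLK1 cells and 1171 to 1179 in untreated control cells. The order of that sum and of the Ms4a6 genes differs with LPS, where the sum was higher in shDCLK1 cells; its part in the Ms4a values was not tested, and a sum led by 1 gene does not show that the markers moved together. The highest marker of B cells was Pax5 at 1.3 FPKM, of T cells Cd3d at 0.67, of granulocyte progenitors Prtn3 at 0.17 and of mast cells Cpa3 at 0.04. The B cell markers summed to at most 1.42 FPKM in a library. The 6 dendritic cell markers, of which 5 reached 1 FPKM, led by Siglech at 13.7 FPKM, summed to 12.4 to 12.7 FPKM in shDCLK1 cells with LPS and 17.2 to 18.8 in control cells with LPS, and to 14.84 to 15.96 in untreated shDCLK1 cells and 11.1 to 12.4 in untreated control cells. In untreated cells that sum, like the Ms4a6 genes, was higher in the shDCLK1 line than in the control line. With LPS it was lower in the shDCLK1 line than in the control line. Its highest markers after Siglech included Ccr7, at up to 8.56 FPKM, whereas Flt3 stayed at or below 0.04. Such a sum does not show that the markers moved together, and its part in the Ms4a values was not tested. Library totals were 457695 to 495373 FPKM, with 10119 to 10619 genes at 1 FPKM or more.

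The other family members and related proteins gave a mixed picture. The table lists 9 of the 21 Ms4a genes in RefSeq; the other 4, Ms4a4a, Ms4a4b, Ms4a4d and Ms4a15, reached at most 0.55 FPKM and were not tested. Tmem176a and Tmem176b, more distant family members expressed in myeloid cells, were far higher than the Ms4a genes and fell with LPS in both lines. Tmem176a averaged 34.7 ± 3.21 FPKM in shDCLK1 cells with LPS and 39.2 ± 0.274 in control cells with LPS, and 54.9 ± 1.77 in untreated shDCLK1 cells and 69.3 ± 0.964 in untreated control cells (SD, n = 3). Its average LPS response was -0.73 (adjusted p = 3.18e-10) and its line difference -0.25 (adjusted p = 9.05e-05) in limma. Tmem176b fell by 0.62 (adjusted p = 5.03e-10) with LPS, with a line difference of -0.00 (adjusted p = 0.973) in limma. After median-of-ratios scaling both still passed as lower with LPS, at -0.35 for Tmem176a and -0.23 for Tmem176b. The interactions of Tmem176a, 0.16 (limma adjusted p = 0.0854), and Tmem176b, 0.10 (limma adjusted p = 0.211), did not pass; after quantile normalization that of Tmem176a was 0.20 (adjusted p = 0.0352).

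Of 7 receptors and adaptors linked with MS4A proteins, all of them tested, 3 rose and 3 fell in the average LPS response, around a median of -0.01. In the average line difference 6 were higher and 1 lower, with a median of 0.19, and in the interaction 3 were higher and 2 lower. Over all genes tested, 26.2% were higher and 63.5% lower with LPS, 30.6% and 16.9% in the line difference, and 32.6% and 16.9% in the interaction, and the interaction counts lie near those shares. Trem2, a lipid receptor of macrophages and microglia, fell by 1.62 with LPS on the log2 scale (limma adjusted p = 8.59e-14), and its interaction was 0.40 (adjusted p = 6.13e-04), the sign opposite to the Ms4a6 genes. Fcer1g, the signalling chain that partners the IgE and IgG receptors, rose by 1.51 (adjusted p = 1.57e-14 in limma) with an interaction of -0.95 (adjusted p = 4.85e-08). Lyn, a Src-family kinase, rose by 1.48 (adjusted p = 1.31e-15 in limma) with an interaction of -0.16 (adjusted p = 0.00681). The largest interaction of the 7 was that of Syk, at 1.08 (limma adjusted p = 1.33e-06), opposite in sign to Fcer1g and the Ms4a6 genes. The largest line difference was that of Clec7a, at 1.81 (limma adjusted p = 1.64e-10).

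Of 10 genes of the type I interferon signal, from interferon beta to its receptor, kinases and transcription factors, 8 rose and 2 fell in the average LPS response, with a median of 0.81. In the interaction 5 passed as lower and 0 as higher, with a median of -0.29. Among all genes tested the shares were 26.2% higher and 63.5% lower with LPS, and 32.6% higher and 16.9% lower in the interaction. Irf7, a transcription factor that amplifies interferon output, averaged 756 ± 37.6 FPKM in shDCLK1 cells with LPS and 850 ± 20.3 in control cells with LPS, and 136 ± 6.85 in untreated shDCLK1 cells and 32.0 ± 1.35 in untreated control cells (SD, n = 3). Its interaction was -2.22 (limma adjusted p = 1.04e-10). Stat2, which carries the signal of the interferon receptor, had an interaction of -1.42 (limma adjusted p = 1.04e-10).

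On chromosome 19, 47 protein-coding genes lie within 500 kb of a member in RefSeq, and 23 are in the table. Both counts include the 5 members themselves. Of the 9 tested that are not members, 4 rose and 5 fell with LPS, and in the interaction 3 were higher and 3 lower. With all-gene shares of 26.2% higher and 63.5% lower for LPS and of 32.6% and 16.9% for the interaction, nothing is read from these counts. Slc15a3, a lysosomal peptide and histidine transporter, rose by 4.24 (limma adjusted p = 3.76e-18) with an interaction of -0.20 (adjusted p = 0.0132). Tmem132a rose by 2.64 (limma adjusted p = 7.33e-16) with an interaction of -0.21 (adjusted p = 0.0244), and Tmem109 fell by 1.56 (limma adjusted p = 3.90e-14) with an interaction of 0.19 (adjusted p = 0.0263). In absolute size the largest interactions of the 9 were -0.32 for Osbp (limma adjusted p = 5.26e-04) and 0.26 for Prpf19 (limma adjusted p = 5.70e-04). All these interactions stand beside -3.05 to -2.34 for the 3 Ms4a6 genes, and the difference between genes was not tested. Those of Tmem132a and Tmem109 lost their call when 1 of several libraries was left out (adjusted p of 0.0526 to 0.0601 for Tmem132a and 0.0593 to 0.0655 for Tmem109), and that of Tmem109 was 0.10 after median-of-ratios scaling (adjusted p = 0.218).

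By the root mean square difference of centred log2(FPKM + 1) over the 12 libraries, among 8605 genes, the nearest to Ms4a6b were H2-T24 at 0.166, Oas3, an antiviral oligoadenylate synthetase, at 0.304 and Sema4a, a semaphorin, at 0.318. H2-T24, a nonclassical MHC class I gene, had 69.7 FPKM in shDCLK1 cells with LPS and 79.8 in control cells with LPS, and 78.1 in untreated shDCLK1 cells and 21.0 in untreated control cells (means of 3). Nearest to Ms4a6c were Slpi, a secreted protease inhibitor, at 0.317, Mpeg1, a pore-forming protein of macrophages, at 0.386 and the interferon-induced Ifi44l at 0.397. Nearest to Ms4a6d were the interferon-induced Ifi44 at 0.311 and Ifi44l at 0.378, and Fam46a at 0.412. Nearest to Ms4a4c were the transcription factors Nfil3 at 0.132 and Etv3 at 0.133, and Fam129a at 0.150. The added 1 compresses Ms4a4c, which had group means of 0.01 to 2.42 FPKM and passed the filter through its LPS libraries alone. Fam129a had 43.9 FPKM in untreated shDCLK1 cells and 43.8 in untreated control cells, so nearness here is not a like fold change. The same compression affects Ms4a6b and Ms4a6d, which were under 1 FPKM in untreated control cells. Within the family the closest pair was Ms4a6c and Ms4a6d at 0.424, and the most distant Ms4a6b and Ms4a6d at 0.860. With Pearson correlation as the measure, 1 of the 3 genes was named again for Ms4a6b and 0 for each of the other 3 members.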

How the data were processed

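Poly(A) RNA from 12 RAW264.7 libraries was sequenced as paired ends, per the labels' protocols. The authors deposited 1 table of gene FPKM values with 2 decimals; Bowtie 0.12.2, HISAT2 2.0 and StringTie 1.3.0 are named in the submitters' processing notes, which also list builds mm8 and mm9 without a role. The annotation and strand handling are not given in the sources used here. An unnamed column (1 in all) was not used. FPKM divide by library total and length, so they give relative levels. The absolute depth is unknown, so no interval from counts is given. In 14 genes the values were small whole multiples (within 4%) of the gene's lowest value above 0. Those steps gave relative depths of 0.977 to 1.01. The 4% limit was set on every library and keeps such depths close together, so they do not show that depths were equal.

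Genes with 1 FPKM or more in 3 libraries or more (11052 of 18190) were fitted as log2(FPKM + 1) by limma 3.58.1 in R 4.3.3, with group means, a mean trend and Benjamini-Hochberg adjustment (threshold 0.05, two-sided). The fit was tested on simulated data. Fold changes on this scale understate changes of low genes. Members and lists were chosen with earlier results of these data known. Genes outside the members were named by rule: up to 3 per list with the largest called LPS change, Tmem176a and Tmem176b, and the 3 nearest profiles to each member; 1 gene that the rule named is not reported here. Promoters come from RefSeq and transcripts from GENCODE M21. Alternatives were another pseudocount, no filter, 2 scalings, no trend, a replicate block and leaving out each library.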

Additional observations from a re-analysis of the deposited data

Results flagged for a closer look

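Ms4a6b was lower with LPS in every library of the shDCLK1 line and higher in every library of the control line, with an interaction of -2.34; that difference was not tested, since the gene was chosen on it. For the following reported genes outside the members, named by rule, the LPS response differed between the lines in a limma test of the interaction. Among receptors and adaptors it was 0.40 for Trem2, -0.95 for Fcer1g and -0.16 for Lyn. Among interferon signal genes it was -2.22 for Irf7 and -1.42 for Stat2. Among the chromosome neighbours it was -0.20 for Slc15a3, -0.21 for Tmem132a and 0.19 for Tmem109; the calls on Tmem132a and Tmem109 were lost when 1 of several libraries was left out, and that on Tmem109 also after median-of-ratios scaling (0.10, adjusted p = 0.218). Genes of these lists that the rule did not name passed the same test too. Among them were Syk at 1.08, Clec7a at 0.34, Irf9 at -0.74, Osbp at -0.32 and Prpf19 at 0.26. Groups of 3 libraries are too small for a check of single outlying libraries.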

How the results depend on the processing

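The average LPS response and the line difference of Ms4a6b, Ms4a6c and Ms4a6d kept their sign and their call under every alternative run. For Ms4a4c the line difference was 0.012 with a pseudocount of 0.1 (adjusted p = 0.968), against -0.30. Scaling moved the counts over all genes. Called higher and lower in the average LPS response were 2891 and 7015 genes as deposited, 4918 and 4839 after median-of-ratios scaling, and 4577 and 5137 after quantile normalization. In the line difference these were 3387 and 1867, 2793 and 2681, and 2352 and 3203, and in the interaction 3601 and 1863, 2539 and 2616, and 2710 and 2394; the cause was not tested. The 1 nearest gene named again by Pearson correlation for Ms4a6b, and the 0 for Ms4a6c, Ms4a6d and Ms4a4c, came from another measure of likeness.

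Libraries with the same replicate number did not deviate together (r from -0.107 to 0.0638 over 18 pairs, against -0.106 to 0.106 for different numbers). With the replicate block, 2880 genes were called higher and 7008 lower with LPS, and no call on a member changed. Leaving out 1 library, the line difference ranged from -0.38 to -0.25 for Ms4a4c, and the LPS difference in shDCLK1 cells from -0.64 to -0.42 for Ms4a6b and from -0.05 to 0.11 for Ms4a6c; the first or second shDCLK1 library with LPS gave most of the extremes. The interaction of Tmem109 was 0.10 after median-of-ratios scaling (adjusted p = 0.218), and that of Tmem176a 0.20 after quantile normalization (adjusted p = 0.0352). These alternatives for genes outside the members were chosen after seeing the data.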
